A study of Saccharomyces cerevisiae with 14 samples.

Results

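The 10 core autophagy genes described here are *ATG1* (YGL180W), *ATG3* (YNR007C), *ATG5* (YPL149W), *ATG7* (YHR171W), *ATG8* (YBL078C), *ATG9* (YDL149W), *ATG12* (YBR217W), *ATG13* (YPR185W), *ATG14* (YBR128C) and *ATG19* (YOL082W). They were listed by name for their roles, with earlier results of these data known, and all 10 were measured among 6387 open reading frames. The study followed the yeast *Saccharomyces cerevisiae* strain NRRL Y-12632, a wild-type culture collection strain, after addition of 30 mM 5-hydroxymethylfurfural (HMF), an inhibitory aldehyde formed when plant biomass is broken down to sugars. HMF was added after 6 h of culture on synthetic complete medium, and control cultures were grown alike with no HMF. RNA was taken at 10, 30, 60 and 120 min and hybridized on 14 two-color arrays of 70-mer oligonucleotides. Of these, 7 were for HMF and 7 for control. Each group had 2 biological replicates up to 60 min, while at 120 min it was a single array. Every sample was compared with RNA of the untreated 0 min culture.

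Autophagy carries cytoplasm and organelles to the vacuole in a double-membrane vesicle, the autophagosome. The Atg1 kinase with its partner Atg13 starts the process, a lipid kinase complex targeted by Atg14 and the membrane protein Atg9 prepare the growing membrane, and a pair of ubiquitin-like systems then joins Atg12 to Atg5 and Atg8 to a lipid. In yeast, nitrogen starvation and loss of TOR kinase activity are the classic triggers, and *ATG8* is among the members whose transcript is known to rise under starvation. A related route that works in growing cells, the cytoplasm-to-vacuole targeting (Cvt) pathway, uses the same machinery with the receptor Atg19 to deliver vacuolar enzymes.

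Values are log2 ratios of the sample to 0 min, centred by subtracting the median of all open reading frames on the same array, so that 0 stands for the middle gene of that array. The array medians before centring ran from -0.32 to 1.29. Replicate arrays correlated across genes at 0.39 to 0.65, and the typical SD between replicates was 0.34 after centring against 0.57 before. Differences between HMF and control were tested with limma over all open reading frames, with Benjamini-Hochberg adjustment, and a gene is said to have risen or fallen where the adjusted p was at most 0.05. For the mean of the differences at the 4 times, that limit was passed by 724 open reading frames, or 11.3%, of which 325 (5.09%) were higher and 399 (6.25%) lower.

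Among the 10 genes, *ATG8* rose with HMF and no other gene passed the test in either direction, while 2 of the 10 were at an unadjusted p of at most 0.05 against 25.1% of all open reading frames. That fit did not pair the arrays by replicate number, and with the number as a block 2 of the 10 were called, *ATG3* (adjusted p = 0.02 by limma) beside *ATG8*. Open reading frames called in the mean ranged from 118 to 1575 over the alternatives that kept every replicate, among them this block. Their number under the block itself is not given here. Averaged over the 4 times, the transcript of *ATG8* was 2.46-fold higher with HMF than without. The mean differences of the 10 genes ran from -0.85 for *ATG14* to 1.30 for *ATG8*, with a median of 0.14 where the median of all open reading frames was 0.00. The difference was above 0 for 7 of the 10 genes, against 50.1% of all open reading frames, but for 4 of 10 on the scale as deposited, where centring is not applied and the median of all genes is itself -0.19. Of the 9 genes that did not pass, 7 had a 95% confidence interval that stayed within a 2-fold difference either way, while the intervals of *ATG7* and *ATG14* reached further. The interval of *ATG8* did not overlap that of *ATG3*, next in order at 0.46, whereas the intervals of all other neighbors in the order overlapped. The differences between genes were not tested.

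**Figure D1:**
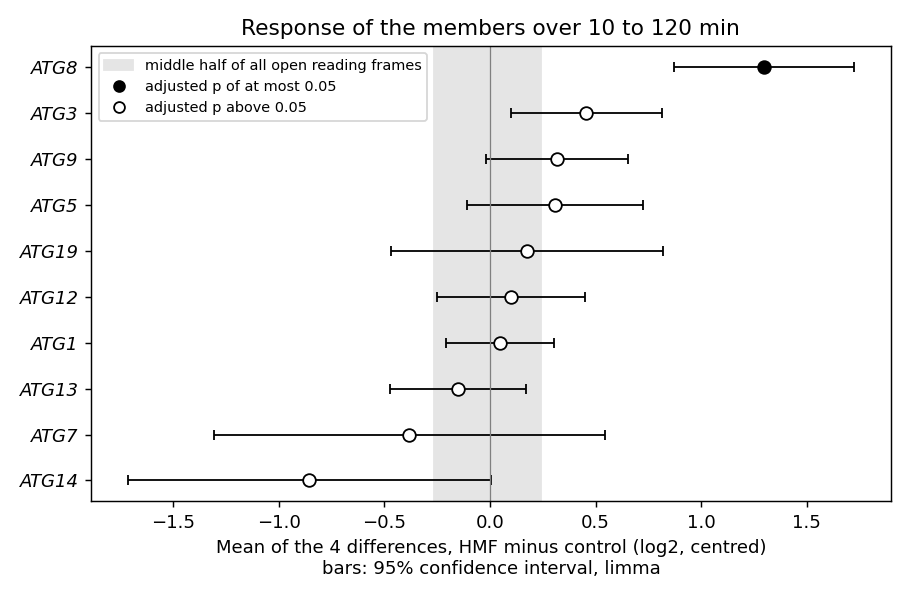
Mean of the 4 HMF minus control differences (log2, centred; x axis) for each of the 10 genes (y axis), with bars for the 95% confidence interval of the limma fit and a grey band for the interquartile range of all open reading frames. *ATG8* at 1.30 is the filled point, with an adjusted p of 0.0033, and the wide bars of *ATG14* and *ATG7* reach past -1.

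*ATG8* encodes the ubiquitin-like protein that is attached to phosphatidylethanolamine on the growing membrane, and it stays with the finished autophagosome, which makes it the usual marker of the pathway. With HMF its centred log2 ratios were 1.70 and 2.37 (10 min), 1.80 and 1.61 (30 min), 1.38 and 0.90 (60 min) and 1.55 (120 min). In control cultures they were 0.70 and 0.32 (10 min), 0.64 and -0.07 (30 min), 0.12 and -0.12 (60 min) and 0.43 (120 min). After centring, all 7 HMF arrays lay above all 7 control arrays, a pattern seen in 2.36% of all open reading frames. As deposited they overlapped, with control replicate 2 at 10 min (1.62) above both HMF arrays at 60 min (1.56 and 1.29). The group means with HMF were 2.04 ± 0.47 (SD, n = 2; 10 min), 1.70 ± 0.13 (30 min) and 1.14 ± 0.34 (60 min). The control means were 0.51 ± 0.26, 0.28 ± 0.50 and 0.00 ± 0.16 at the same times. *ATG8* thus had the higher level with HMF at every time, with the 10 min mean the highest of the HMF groups.

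The mean difference for *ATG8* was 1.30 on the log2 scale (SE 0.19, 95% confidence interval 0.87 to 1.72, adjusted p = 0.0033 by limma), larger than that of 98.98% of open reading frames. At single times the difference was 1.53 after 10 min (adjusted p = 0.054) and 1.42 after 30 min (adjusted p = 0.07), then 1.14 after 60 min (adjusted p = 0.19) and, from single arrays, 1.11 after 120 min (adjusted p = 0.65), each by limma and none past the limit. With the replicate number as a block, the adjusted p from limma was 0.035 at 10 min and 0.048 at 30 min, so that *ATG8* was called at these times. With a separate block at each time it was 0.056 and 0.068, and *ATG8* was not called at either. Taken between arrays of the same replicate number, the centred differences ranged from 1.01 to 2.05 and were above 0 in all 7 pairs. The largest, replicate 2 at 10 min, had deposited values of 2.05 with HMF and 1.62 in control. The call was lost on the scale as deposited, where the mean difference was 1.11 (SE 0.33, adjusted p = 0.078 by limma), a scale on which 118 open reading frames (1.85%) were called, 25 higher and 93 lower. It held when any 1 replicate was left out, with a mean difference between 1.21 and 1.39.

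**Figure D2:**
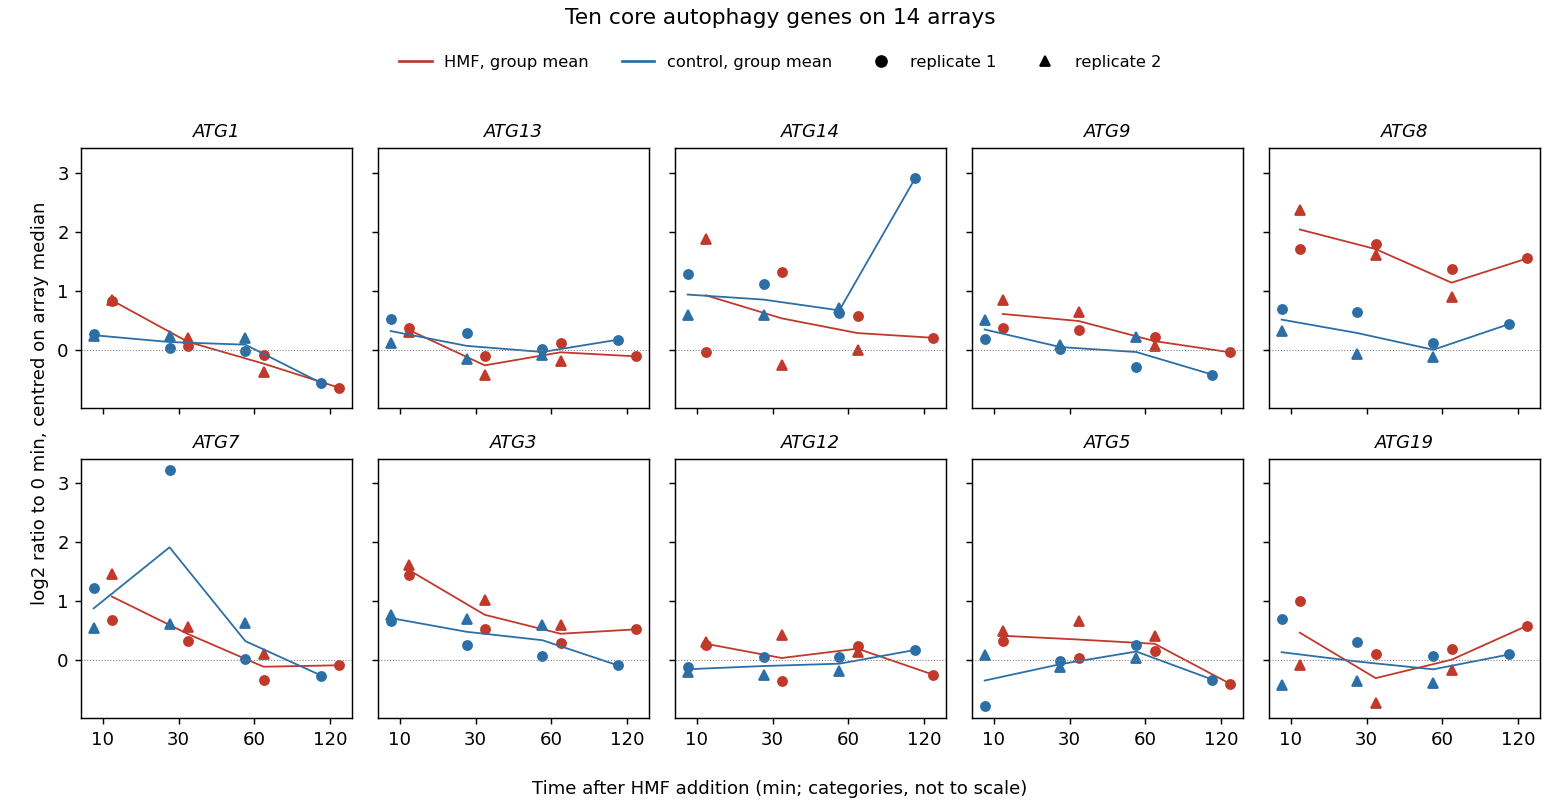
Centred log2 ratio to 0 min (y axis) of the 10 genes on each of the 14 arrays at 10, 30, 60 and 120 min (x axis, categories), with points for single arrays, circles for replicate 1, triangles for replicate 2, and lines through the group means. *ATG8* is the gene whose red HMF points, from 0.90 to 2.37, all lie above its blue control points, from -0.12 to 0.70, while *ATG7* and *ATG14* each have 1 control array near 3.

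The enzymes that attach Atg8 to its lipid are Atg7, which activates it, and Atg3, which transfers it. *ATG3* had HMF values of 1.44 and 1.61 (10 min), 0.52 and 1.02 (30 min), 0.30 and 0.60 (60 min) and 0.52 (120 min). Its control values were 0.65 and 0.77, 0.26 and 0.70, 0.08 and 0.60, and -0.09 at the same times. The groups separated at 10 min, with HMF above control as for 19% of open reading frames, and overlapped at 30 and 60 min. The mean difference of *ATG3* was 0.46 (SE 0.16), with an unadjusted p of 0.019 and an adjusted p of 0.11 by limma. On the scale as deposited the mean difference was 0.26 (adjusted p = 0.84 by limma). The difference at 10 min on that scale was 0.145 (adjusted p = 0.89 by limma). Replicate 2 exceeded replicate 1 in all 6 replicated groups for *ATG3*, where 18.9% of open reading frames kept 1 order throughout, and with the replicate number as a block its adjusted p was 0.02, past the limit, as it was when each time had a block of its own (adjusted p = 0.026). At 10 min the difference of *ATG3* was 0.81 (SE 0.28, adjusted p = 0.17 by limma), with an adjusted p of 0.039 under the common block and 0.054, no longer called, under a separate block at each time.

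*ATG7* had HMF values of 0.69 and 1.47 (10 min), 0.33 and 0.56 (30 min), -0.34 and 0.11 (60 min) and -0.09 (120 min). In the control cultures *ATG7* read 1.22 and 0.54, 3.21 and 0.61, 0.02 and 0.62, and -0.26. The groups overlapped at 10 and 60 min, and the 3.21 of control replicate 1 at 30 min stood far above every other value of the gene. At 30 min both HMF arrays were below both control arrays, as for 22.1% of open reading frames. The mean difference of *ATG7* was -0.38 (SE 0.41, adjusted p = 0.63 by limma). Without that array the mean difference was -0.06, and the difference at 30 min moved from -1.47 to -0.16.

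Atg12 is a ubiquitin-like protein that Atg7 also activates, and it is joined to Atg5 to form a conjugate that promotes the attachment of Atg8 to its lipid. The values of *ATG12* ran from -0.36 to 0.43 with HMF (median 0.25) and from -0.25 to 0.17 in control (median -0.11), so that both groups stayed close to the middle gene of the array. Those of *ATG5* ran from -0.40 to 0.67 with HMF (median 0.33) and from -0.78 to 0.26 in control (median -0.02). At 10 min both HMF arrays lay above both control arrays for *ATG12* and for *ATG5*, as was the case for 19% of open reading frames. The same was seen for *ATG12* at 60 min (24.2% of open reading frames) and for *ATG5* at 30 min (21.7%). The mean differences were 0.10 (SE 0.15, adjusted p = 0.75 by limma) for *ATG12* and 0.31 (SE 0.18, adjusted p = 0.35 by limma) for *ATG5*. Of all 10 genes, these were the pair with the most similar values over the 14 arrays, with a root mean square difference of 0.30. Close behind were *ATG1* with *ATG9* at 0.31 and *ATG13* with *ATG12* at 0.33.

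Atg1 is the protein kinase at the head of the pathway, and Atg13 is its regulatory subunit, which TOR-dependent phosphorylation keeps inactive in fed cells. *ATG1* had HMF values of 0.83 and 0.85 (10 min), 0.06 and 0.21 (30 min), -0.09 and -0.38 (60 min) and -0.64 (120 min). Its control values were 0.26 and 0.23, 0.03 and 0.23, -0.02 and 0.19, and -0.56. *ATG1* therefore stood above control on both arrays at 10 min, as 19% of open reading frames did, and below control on both arrays at 60 min, as 23.6% did. The differences were 0.59 at 10 min (SE 0.20, adjusted p = 0.17 by limma) and 0.00 at 30 min. They were -0.32 at 60 min (adjusted p = 0.65 by limma) and -0.08 on the single arrays at 120 min. Their mean was 0.05 (SE 0.11, adjusted p = 0.85 by limma). *ATG1* had the smallest spread between replicates of the 10 genes, with an SD of 0.13 within groups, larger than that of only 3.24% of open reading frames.

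The values of *ATG13* ran from -0.43 to 0.36 with HMF and from -0.16 to 0.52 in control. Its mean difference was -0.15 (SE 0.14, adjusted p = 0.57 by limma), and the groups overlapped at 10, 30 and 60 min. Neither subunit of the kinase, *ATG1* or *ATG13*, passed the test at any time.

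Atg14 is the subunit that directs the phosphatidylinositol 3-kinase complex to the site where autophagosomes form. *ATG14* had HMF values of -0.04 and 1.88 (10 min), 1.32 and -0.26 (30 min), 0.57 and -0.01 (60 min) and 0.20 (120 min). Its control values were 1.29 and 0.58, 1.11 and 0.59, 0.63 and 0.71, and 2.91. The ranges of *ATG14* over all times overlapped, and replicates at 10 and 30 min differed by over 1 log2 unit with HMF. At 60 min both HMF arrays were below both control arrays, as for 23.6% of open reading frames. The mean difference was -0.85 (SE 0.38, unadjusted p = 0.051, adjusted p = 0.20 by limma). Much of it came from the single pair of arrays at 120 min, where the difference was -2.70, and without the 120 min arrays the mean was -0.24. The spread within groups was an SD of 0.78 for *ATG14* and 0.84 for *ATG7*, against a median of 0.34 over all open reading frames.

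Atg9 is the membrane protein whose vesicles seed the growing membrane. The values of *ATG9* ran from -0.04 to 0.84 with HMF (median 0.34) and from -0.42 to 0.50 in control (median 0.07). At 30 min both HMF arrays were above both control arrays, as for 21.7% of open reading frames. The difference was above 0 at each of the 4 times, from 0.18 at 60 min to 0.44 at 30 min, and the mean was 0.32 (SE 0.15, adjusted p = 0.23 by limma). A difference above 0 at all 4 times occurred for 3 of the 10 genes, *ATG3*, *ATG8* and *ATG9*, and for 18.1% of all open reading frames.

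Atg19 is the Cvt receptor that binds the aminopeptidase precursor and the mannosidase Ams1. The values of *ATG19* ran from -0.72 to 1.00 with HMF and from -0.42 to 0.69 in control, and the groups overlapped at 10, 30 and 60 min. The mean difference was 0.18 (SE 0.28, adjusted p = 0.77 by limma). Replicate 1 exceeded replicate 2 in all 6 replicated groups for *ATG19*, and likewise for *ATG13*, an order found in 10.2% of open reading frames.

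At the single times none of the 10 genes passed the adjusted limit, while of all open reading frames 137 (2.14%), 164 (2.57%), 62 (0.971%) and 13 (0.204%) did so, in order of time. Those counts depended on single replicates, and without 1 of them they fell to as few as 11, 6, 1 and 1. At an unadjusted p of 0.05 by limma 4, 1, 1 and 2 of the 10 genes passed in the same order. The corresponding shares of all open reading frames were 17.7%, 15.5%, 11.8% and 7.55%. At 10 min the difference was above 0 for 9 of the 10 genes, with *ATG14* at -0.01 the exception and a median of 0.38, but for only 3 of the 10 on the scale as deposited, *ATG3*, *ATG5* and *ATG8*, where the median of all genes at this time was -0.66. At 30 and 60 min it was above 0 for 6 of the 10, and at 120 min for 5 of the 10. The test that the 4 differences of a gene are equal was passed by none of the 10 genes and by no open reading frame after adjustment in limma (0%), with 291 (4.56%) at an unadjusted p of 0.05.

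**Figure D3:**
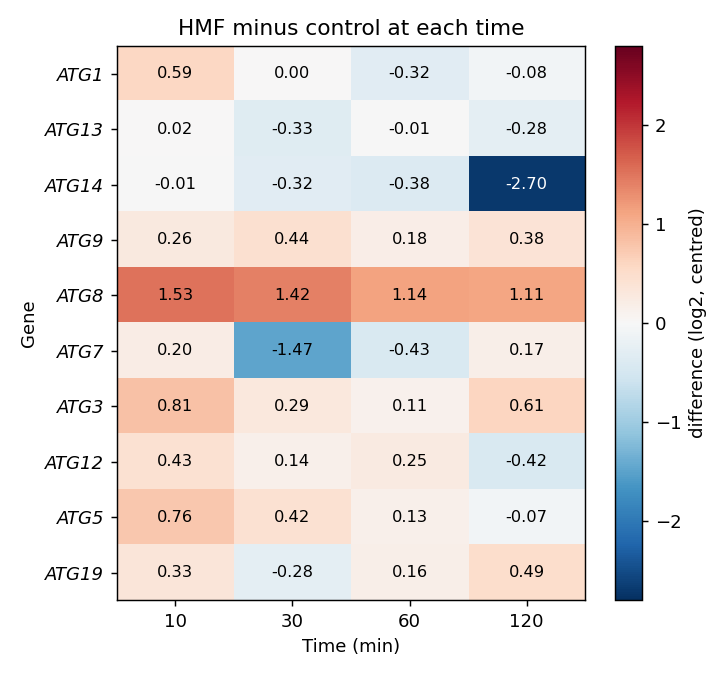
HMF minus control difference (log2, centred; color and printed number) of each of the 10 genes (rows) at 10, 30, 60 and 120 min (columns). *ATG8* is above 1 at every time, and the large negative cells are *ATG14* at 120 min (-2.70, single arrays) and *ATG7* at 30 min (-1.47).

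With HMF, the centred group mean was highest at 10 min for 9 of the 10 genes, all but *ATG19*, and for 30% of all open reading frames. As deposited, *ATG5* was highest at 60 min (0.57 against 0.53 at 10 min), and so was *ATG12* (0.48 against 0.40). The level at 10 min with HMF was above the mean of the later times for all 10 genes, with a median difference of 0.52, where 48.3% of open reading frames were above 0. In the control cultures the same was seen for 7 of the 10, with a median of 0.23, where again 48.3% of open reading frames were above 0. On the scale as deposited it was above 0 for 10 of the 10 genes in both, with the median of all genes at -0.09 with HMF and 0.56 in control. *ATG1* fell from 10 min to the later times with HMF by 1.09 on the log2 scale (SE 0.17, adjusted p = 0.024 by limma), the only call among the 10 genes, where 47 open reading frames (0.736%) were called higher at 10 min and 210 (3.29%) in either direction. The latter count was 0 without replicate 2 of HMF at 10 min or replicate 1 of HMF at 60 min. At an unadjusted p of 0.05, 2 of the 10 genes passed against 20.2% of all open reading frames. The call for *ATG1* was lost on the scale as deposited (adjusted p = 0.59), under quantile normalization (adjusted p = 0.14) and in 7 of the 12 fits that left out 1 replicate. Those 7 were without replicate 1 or 2 of HMF at 10 min, replicate 2 of HMF at 30 min, replicate 1 or 2 of HMF at 60 min, or replicate 1 or 2 of control at 60 min, with an adjusted p of at most 0.12. In control, *ATG1* was 0.36 higher at 10 min than later (adjusted p = 1 by limma). *ATG3* was 0.95 higher at 10 min than later with HMF (SE 0.24, adjusted p = 0.067 by limma). With the replicate number as a block its adjusted p was 0.02. As deposited it was 0.88 higher (adjusted p = 0.75 by limma). In control no open reading frame was called in limma (0%), with 245 (3.84%) and none of the 10 genes at an unadjusted p of 0.05.

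For comparison, 60 genes were listed by role, 46 of autophagy and the vacuole, including the 10, and 14 regulators. In the mean of the 4 differences 3 of the 60 rose, *ATG8*, *ATG31* and *AMS1*, and *ATG41* fell, where 5.09% of all open reading frames rose and 6.25% fell. The 36 autophagy and vacuolar genes beyond the 10 had a median difference of 0.13, with 27 above 0 against 50.1% of all open reading frames. As deposited every gene was lower by the same amount, with the median of all open reading frames at -0.19. The number of the 36 above 0 on that scale is not given here. The 14 regulators, among them the repressor gene *UME6*, the activator genes *GCN4*, *GLN3*, *MSN2* and *MSN4* and the TOR kinase genes *TOR1* and *TOR2*, had a median of 0.05 and a range of -0.34 to 0.25 with no call by limma. None of the 60 passed at a single time.

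*ATG31*, which encodes part of the scaffold that gathers the Atg1 complex under starvation, ran from 0.56 to 1.496 with HMF (median 1.23) and from 0.21 to 0.60 in control (median 0.37). The ranges of *ATG31* overlapped, and its mean difference was 0.76 (SE 0.19, adjusted p = 0.033 by limma). That call was kept in 9 of 21 alternative fits and lost on the scale as deposited (adjusted p = 0.49). Leaving out 1 replicate ended it in 9 of 12 fits, all but those without either replicate of HMF at 10 min or replicate 1 of HMF at 30 min, with adjusted p up to 0.082. *ATG41*, whose product acts with Atg9 in forming the vesicle, ran from -2.89 to -0.80 with HMF (median -2.17) and from -1.02 to 0.69 in control (median 0.03). The ranges of *ATG41* overlapped, and its mean difference was -1.96 (SE 0.35, adjusted p = 0.0086 by limma), called in all 21 alternative fits. *AMS1*, the vacuolar mannosidase carried by the Cvt pathway, ran from 0.15 to 1.51 with HMF (median 0.98) and from 0.22 to 1.09 in control (median 0.40). The groups of *AMS1* overlapped, and its mean difference of 0.49 (SE 0.13, adjusted p = 0.045 by limma) was called in 7 of 21 alternative fits. Leaving out 1 replicate ended the call of *AMS1* in 10 of 12 fits, all but those without replicate 2 of HMF at 30 min or replicate 1 of control at 10 min, with adjusted p up to 0.11.

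**Figure D4:**
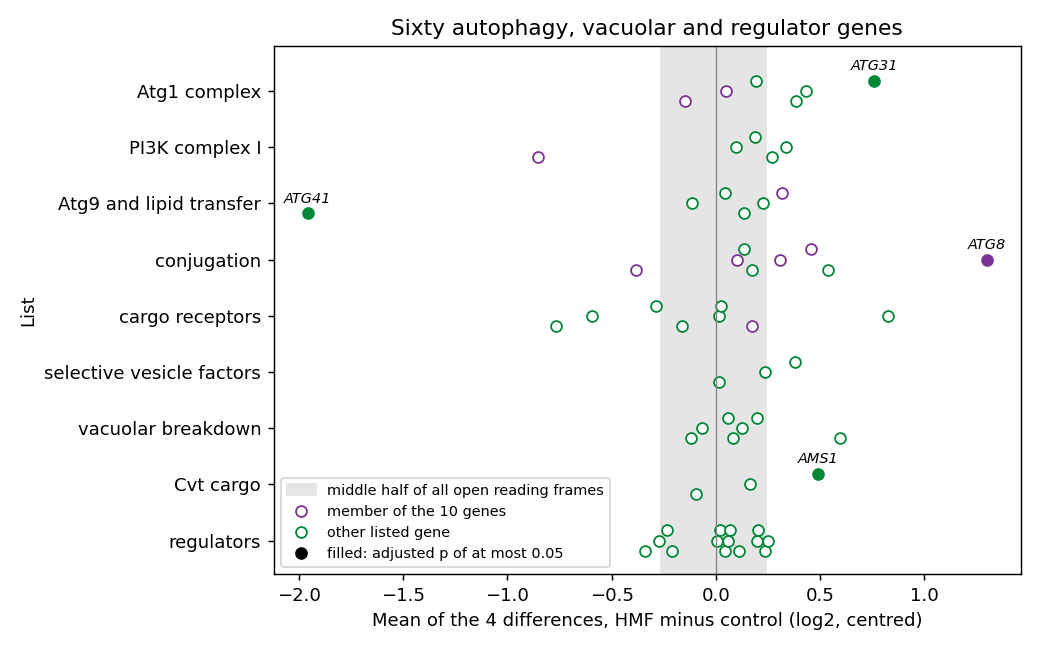
Mean of the 4 HMF minus control differences (log2, centred; x axis) of 60 listed genes by role (y axis), with the 10 core genes in purple, other genes in green, filled points for an adjusted p of at most 0.05 and a grey band for the interquartile range of all open reading frames. The filled points are *ATG41* at -1.96, *AMS1* at 0.49, *ATG31* at 0.76 and *ATG8* at 1.30.

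The open reading frames whose centred values over the 14 arrays lay closest to those of *ATG8* were YHR138C, *ECM29*, YER137C, *PRE7* and *RPT2*, with root mean square differences of 0.26, 0.35, 0.37, 0.40 and 0.41. *PRE7* and *RPT2* encode proteasome subunits and *ECM29* a proteasome-associated protein. Since likeness was measured on the same arrays as the response, these genes were bound to be high with HMF. Among the other 9 core genes, *ATG3* was nearest to *ATG8*, at rank 148 of all open reading frames with a difference of 0.69, followed by *ATG9* at rank 969 with 0.98. The remaining 7 lay between ranks 1989 and 2317, at 1.14 to 1.19, where the median of all open reading frames was 1.31.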

How the data were processed

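RNA of HMF and control cultures was measured on 14 two-color arrays, Cy3 for the sample and Cy5 for the 0 min reference. The authors scanned them with a GenePix scanner, took background-corrected median signals, inspected every spot and scaled slides by a spike-in, *CAB*. How the duplicate spots were combined is not given in the sources used here. The deposited values are log2 ratios of sample to reference for 6387 open reading frames. Spot intensities were not used here, so the signal over background is unknown. Precision is limited by how many arrays there are.

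Each array was centred on its median. Symbols were found for 5840 open reading frames in a RefSeq table, and 547 keep systematic names. Means of the 8 groups were fitted with limma 3.58.1 in R 4.3.3 (lmFit, eBayes; 6 residual and 2.53 prior degrees of freedom), which takes the single arrays at 120 min to vary like the others. Fold changes are powers of 2 of differences. Errors of differences are moderated standard errors, and p-values were adjusted over all open reading frames within a contrast. On simulated data, 67 of 100 genes changed by 1 log2 unit and 88 of 100 changed by 2 were recovered for the mean of the 4 differences over 6387 genes, and 7 of 6187 unchanged genes were called. The simulation drew independent normal errors and gave 200 genes an equal change on all HMF arrays. It held no shared deviation of same-numbered arrays, so its rates need not hold for these data.

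The labels number the replicates but do not state that HMF and control cultures were paired, and the main fit did not pair them. Same-numbered HMF and control arrays deviated together, with correlations of 0.31, 0.28 and 0.17 at 10, 30 and 60 min. A replicate block was therefore tried as an alternative. Other alternatives were the scale as deposited, quantile normalization, robust eBayes, the methods' two-factor fit, a 2-fold criterion from 0 min, the fit without the 120 min arrays and each replicate left out. The 10 genes and the wider lists were chosen with earlier results of these data known. Named were all 10 genes, the called genes of the wider lists, and the 5 open reading frames nearest to *ATG8*. Promoter and protein sequences were not analysed here.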

Additional observations from a re-analysis of the deposited data

Results flagged for a closer look

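*ATG1* stood out as the only gene of the 10 whose HMF and control arrays separated in opposite directions at different times. Both HMF arrays lay above both control arrays at 10 min, with a difference of 0.59, and both lay below at 60 min, with a difference of -0.32. Differences of opposite sign, without separation in opposite directions, also occurred for *ATG5*, *ATG7*, *ATG12*, *ATG13* and *ATG19*. The test that the 4 differences of *ATG1* are equal gave an unadjusted p of 0.06 and an adjusted p of 1 by limma. Separation at 10 min with HMF above was seen in 19% of open reading frames, and separation at 60 min with HMF below in 23.6%. The share with separation in opposite directions was not determined. On the scale as deposited the difference of *ATG1* at 10 min was -0.08. No group held the 4 or more samples needed to look for a single outlying array.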

How the results depend on the processing

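*ATG8* was called in the mean difference in 20 of 21 alternatives, the scale as deposited being the exception (1.11). The 21 are not independent checks. Of them, 12 left out 1 replicate each, and the 2-fold criterion kept the p of the centred fit. The number of the 10 genes called in the mean moved from 1 to 0 as deposited, to 2 with the replicate block, to 2 with the block within time and to 2 with the methods' fit unadjusted. At 10 min it moved from 0 to 2 with the block and 3 unadjusted, at 30 min from 0 to 1 and 1, at 60 min to 2 unadjusted and at 120 min to 1 unadjusted. For 10 min against later times with HMF it moved from 1 to 0 as deposited, 0 under quantile normalization, 2 and 2 with the blocks, 3 unadjusted and 0 to 1 without single replicates. It became 1 unadjusted in control and 1 for the test of equal differences. Open reading frames called in the mean numbered 724 in the centred fit, 118 as deposited and 1575 unadjusted. The number of open reading frames called under each block alone is not given here. Over the alternatives that kept every replicate, open reading frames called ranged from 10 to 1135 at 10 min, 17 to 976 at 30 min, 12 to 782 at 60 min and 0 to 513 at 120 min. For the test of equal differences the range was 0 to 327. For 10 min against later times, open reading frames called ranged from 0 to 1270 with HMF and from 0 to 272 in control. Without single replicates they numbered 497 to 726 in the mean, 11 (without HMF replicate 2 at 10 min) to 111 at 10 min, 6 (without control replicate 1 at 30 min) to 124 at 30 min, 1 (without control replicate 2 at 60 min) to 50 at 60 min, 1 to 6 at 120 min and 0 to 295 for 10 min against later times with HMF.

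As deposited, signs turned in the mean for *ATG1* (-0.14), *ATG12* (-0.092) and *ATG19* (-0.018). They also turned at 10 min for *ATG1* (-0.077), *ATG13* (-0.65), *ATG9* (-0.40), *ATG7* (-0.47), *ATG12* (-0.24) and *ATG19* (-0.34), at 30 min for *ATG1* (-0.34), *ATG3* (-0.056) and *ATG12* (-0.21), at 60 min for *ATG13* (0.24), and for 10 min against later times in control for *ATG14* (0.026), *ATG12* (0.41) and *ATG5* (0.30). Under quantile normalization signs turned at 10 min for *ATG13* (-0.0895) and *ATG7* (-0.074), at 30 min for *ATG1* (-0.0565), at 60 min for *ATG13* (0.013) and *ATG3* (-0.0011), and at 120 min for *ATG1* (0.11) and *ATG5* (0.039). Without the 120 min arrays they turned for 10 min against later times in control for *ATG14* (0.18) and *ATG7* (-0.24). None of these differences was called. As deposited, a contrast is shifted by the same amount for every gene, the contrast of the array medians. At 10 min the median of all genes was 0.01 after centring and -0.66 as deposited. The cause of the other sign turns was not tested.

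Without single replicates the sign also turned at 10 min for *ATG13* (-0.19 to 0.22), *ATG14* (-0.97 to 0.95), *ATG19* (-0.23 to 0.89) and *ATG7* (-0.19 to 0.59), at 30 min for *ATG1* (-0.10 to 0.11), *ATG12* (-0.26 to 0.53), *ATG14* (-1.10 to 0.47) and *ATG19* (-0.70 to 0.13), and at 60 min for *ATG13* (-0.16 to 0.15), *ATG19* (-0.061 to 0.39), *ATG3* (-0.15 to 0.37) and *ATG9* (-0.075 to 0.44). For 10 min against later times it turned with HMF for *ATG14* (-0.38 to 1.54) and *ATG19* (-0.17 to 0.91), and in control for *ATG19* (-0.40 to 0.72), *ATG5* (-0.70 to 0.17) and *ATG7* (-0.22 to 0.65). A lone array left in a group was taken to vary like the others.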
